A study of Mus musculus with 12 samples.

Results

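Male and female mouse livers were compared after natural conception, from the bulk messenger RNA of 3 males and 3 females. The 6 libraries were those labelled as naturally conceived, out of 12 in the series, and genes on the X and Y chromosomes were left out by rule. This left 23314 autosomal gene symbols of 24527 in the table, of which 12773 passed the filter on low counts and were tested. All animals were offspring of CF1 females, an outbred stock, and B6SJL males, a hybrid of inbred strains, and all were 39 weeks old. The 4 groups of the study were natural females, natural males, females conceived by in vitro fertilization (IVF) and males conceived by IVF, with n = 3 libraries in each. The labels name a Jackson Laboratory protocol for the IVF, and give no allele and no other treatment in any group. Because the dams came from an outbred stock and the sires from a hybrid, animals of this cross were not genetically identical, and the labels do not say which were littermates. RNA came from a portion of the snap-frozen liver. The study asked how IVF acts on the adult liver in each sex, and the natural animals are its reference.

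Sex differences of the rodent liver are known to follow the pattern of pituitary growth hormone, which is released in pulses in males and more evenly in females. The hormone acts through its receptor, the kinase JAK2 and the transcription factor STAT5B. BCL6 and CUX2 are known repressors that act on many of the same genes, and the genes they control include steroid-metabolizing cytochromes P450, sulfotransferases and the major urinary proteins, pheromone carriers that male mice excrete in large amounts. Because whole tissue was measured, fewer cells of a type and less RNA per cell cannot be told apart in any difference given here.

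Total counts were 23430136, 8056230 and 14302287 in natural female replicates 1, 2 and 3, and 24235375, 23448074 and 27832271 in the males. Levels of genes are in CPM, counts scaled to a common library total that was adjusted by the trimmed mean of M values (TMM), and the sums of trophoblast, cycling-cell and erythroid genes in the next paragraph are CPM of the unadjusted totals. From counting error alone, a gene with no count could still have a level of 0.372 CPM in the shallowest of these libraries, and of 0.108 CPM in the deepest. The X- and Y-linked check matched the labelled sex in 6 of 6 libraries. Across tested genes, Pearson's r of log2 CPM was 0.969 to 0.980 between males and 0.926 to 0.967 between females, and libraries of the same group differed far beyond sampling noise (chi-square over degrees of freedom of 97.3 or more). The first principal component of the 6 libraries held 47.1% of the variance, and female replicate 2, the shallow library, lay farthest from the males on it.

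Female replicate 3 stood apart in another way. It held 6221 counts of Tpbpa, 3870 of Psg21 and 2756 of Prl3b1, genes of placental trophoblast, where the other females had at most 4 counts of each and the males at most 2. A list of 29 trophoblast genes, drawn up after these values were seen, summed to 3030 CPM in that library, to 1.54 and 0.248 CPM in the other females and to between 0.0853 and 0.539 CPM in the males. All 29 genes had more counts there than in each of the 11 other libraries, and none passed the filter. The same library had the highest sums of 6 cycling-cell genes in the table, 37.7 CPM against 1.84 to 6.06 CPM in the other 5 libraries, and of 7 erythroid genes, 83.1 against 8.19 to 55.9 CPM. Results are therefore given with and without it where it decides them.

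Markers of the other cell types of the liver were read beside these results. From 11 marker lists of cell types other than hepatocytes, 58 genes passed the filter, 0 of them of adipocytes. Of the 58, 0 were called by edgeR, the test used throughout, and DESeq2 called 2 and limma voom 1. An unadjusted p under 0.05 was found for 13, beside 1888 of the 12773 autosomal genes. The erythroid and exocrine pancreas lists had 2 tested genes each and the neutrophil list 3, too few to describe those cell types. On the TMM scale used for the genes, the summed level of 10 Kupffer cell and macrophage markers was 388 to 497 CPM in females and 355 to 389 CPM in males. For 8 sinusoidal endothelial markers it was 271 to 313 and 239 to 288 CPM, for 10 stellate cell and fibroblast markers 352 to 415 and 326 to 374 CPM, and for 9 hepatocyte markers, Alb among them, 83617 to 89634.5 and 72309 to 84558 CPM. All 4 sums overlapped between the sexes, and the median log2 fold changes of their tested genes were -0.19, -0.19, -0.06 and 0.01. By unadjusted totals none of the 4 overlapped, with hepatocyte markers at 91174 to 100919 CPM in females and 61765 to 76376 CPM in males, so that this order depends on the scaling. Of the 9 hepatocyte markers 0 were called (0 also by DESeq2 and by limma voom, 2 at an unadjusted p under 0.05). B and plasma cell markers were low and did not overlap on the TMM scale, at 5.75 to 12.4 CPM in females and 4.49 to 5.62 CPM in males. T and NK cell markers were also low but overlapped, at 3.19 to 13.2 CPM in females and 3.25 to 5.34 CPM in males. The median log2 fold changes of these lists were -1.05 and -1.75, with 3 of 7 and 4 of 6 tested genes at an unadjusted p under 0.05. For cholangiocytes the median was -0.84 (2 of 6) and for cycling cells -1.27 (0 of 5). Adipocyte markers were nearly absent, with 4 of 7 at 0 counts in the 6 libraries, and of 8 exocrine pancreas markers 4 were at 0. The part of these marker sums in the results was not tested.

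Of the 12773 autosomal genes, 221 were called between the sexes, or 1.73%, with 113 higher and 108 lower in males (0.885% and 0.846%). A call means a Benjamini-Hochberg adjusted p-value under 0.05 in edgeR's quasi-likelihood test, with the adjustment over all 13204 tested genes, and all adjusted p-values below are of that kind. Most differences were large: 205 of the 221 were at least 2-fold, 132 at least 4-fold and 60 at least 16-fold. The median log2 fold change, male minus female, was 2.25 among genes higher in males and -2.45 among genes lower in males, and was the same with genes absent in a group set to their lower bound. For comparison, the median over all autosomal genes was -0.02, and 1888 of the 12773 had an unadjusted p under 0.05. The 3 male and the 3 female libraries did not overlap for 220 of the 221, the exception being Asns, and for 2535 genes in all (19.8%). By library size alone, without TMM scaling, 84 genes were called higher and 396 lower, and the median of all autosomal genes was -0.33. Leaving out female replicate 3 gave 179 calls, of which 142 were among the 221, and the direction of all 221 was kept. The number of calls was between 104 and 146 when any of the other 5 libraries was left out, and 81 genes, 39 higher and 42 lower in males, were called in all 6 fits that left out a library.

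**Figure D1:**
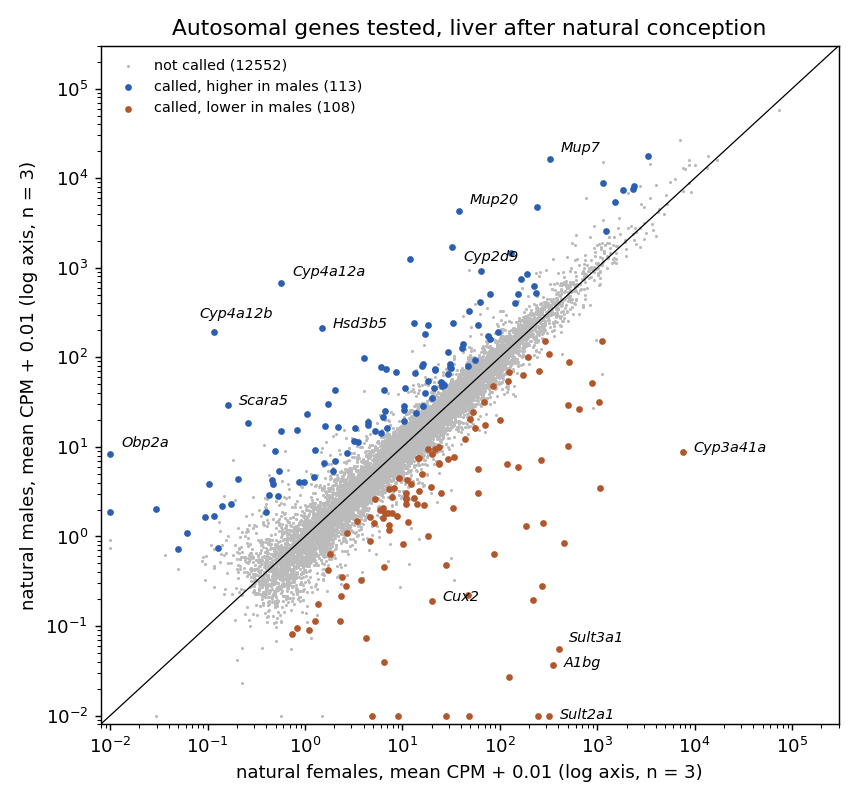
Mean CPM of each autosomal gene tested in natural females (x) and natural males (y), 3 libraries each, with 0.01 added and both axes logarithmic. Blue points are the 113 genes called higher in males and brown points the 108 called lower, and the points along the bottom edge are genes with 0 counts in the 3 males, Sult2a1 among them.

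The growth hormone pathway was examined first, with a list of 19 genes of its signalling and of known sex-bias regulators. Of these, 4 were called (21.1%, against 1.73% of all autosomal genes), and all 4 were lower in males: Cux2, Tox, Prlr and Trim24. Because the list includes known sex-bias regulators, its share of calls partly reflects how it was drawn up. The median log2 fold change of the 19 was -0.41, and -0.73 by library size alone. The same 4 were called without female replicate 3, but Trim24 was called in only 4 of the 6 fits that left out a library. The groups did not overlap for 9 of the 19, against 19.8% of all genes.

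Cux2, a homeobox repressor known as female-biased in mouse liver (chromosome 5, 121856366 to 122050102, GRCm38), had 9.35, 10.8 and 39.6 CPM in the females and 0.228, 0.2 and 0.119 CPM in the males. Every male lay below 1 CPM, and female replicate 3 was the highest of the females. The log2 fold change of Cux2, with its standard error, was -6.75 ± 0.86 (adjusted p = 0.00139). Tox, a chromatin-associated factor best known from T cell development (chromosome 4, 6686353 to 6991557), had 9.39, 28.6 and 11.9 CPM in females and 2.42, 2.05 and 2.25 CPM in males, a log2 fold change of -2.87 ± 0.40 (adjusted p = 0.00271). Trim24, a corepressor of nuclear receptors (chromosome 6, 37870811 to 37966296), had 34.3, 81.5 and 52.2 CPM in females against 22.02, 12.98 and 13.4 CPM in males, and its log2 fold change was -1.79 ± 0.32 (adjusted p = 0.0166). In both genes the shallow female replicate 2 was the highest library, and no male reached the lowest female. Prlr, the prolactin receptor (chromosome 15, 10177238 to 10349180), had 419, 661 and 454 CPM in females and 82.1, 108 and 78.3 CPM in males. Its males were within a narrow range, and the log2 fold change was -2.51 ± 0.26 (adjusted p = 0.000319).

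The receptor, the kinase and the STAT5 factors were not called. Ghr, the growth hormone receptor, had 441, 533 and 456 CPM in females and 890.3, 601 and 621 CPM in males, with a 95% interval of the log2 fold change of 0.10 to 1.02 (adjusted p = 0.229). The intervals were -0.72 to 0.09 for Jak2, -1.20 to -0.19 for Stat5a and -1.20 to 0.39 for Stat5b, with adjusted p-values of 0.455, 0.178 and 0.642. Bcl6, the repressor known as male-biased, had 20.5, 7.67 and 10.7 CPM in females and 50.3, 27.01 and 70.6 CPM in males. All 3 males were above the females, yet its log2 fold change of 1.91 ± 0.59 had an adjusted p-value of 0.145. Of the feedback inhibitors that STAT5 is known to induce, Socs2 had 48.8, 23.01 and 58.2 CPM in females and 8.5, 14.9 and 13.6 CPM in males (log2 -1.81 ± 0.67, adjusted p = 0.224). Cish, another such inhibitor, had 9.99, 9.71 and 15.8 CPM in females and 1.14, 23.7 and 3.36 CPM in males, so that the males alone spanned all 3 females.

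The secreted products of the pathway were not called either. Igf1, the circulating growth factor, had 879.8, 1369 and 824 CPM in females and 1039, 659.8 and 763 CPM in males, with an interval of -0.92 to 0.28 (adjusted p = 0.625). Its partner Igfals had an interval of -1.22 to 0.73 and the binding protein Igfbp3 one of -1.26 to -0.12 (adjusted p = 0.831 and 0.236). For the liver-enriched transcription factors the intervals all included 0: -0.30 to 0.61 for Hnf4a, -0.36 to 1.09 for Foxa1, -1.98 to 0.22 for Foxa2, -0.92 to 1.39 for Cebpa and -2.90 to 1.39 for Onecut1, which encodes HNF6. The estimate for Hnf4a and that for Cebpa turned negative by library size alone.

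Among 13 hormone receptors tested, 0 were called by edgeR (0 by limma voom, 2 by DESeq2). An unadjusted p under 0.05 was found for 4 of them, beside 1888 of the 12773 autosomal genes. The groups did not overlap for 3 of the 13, a share near the 19.8% of all genes. Egfr, the epidermal growth factor receptor, had 253, 119 and 139.6 CPM in females and 558, 358 and 868 CPM in males, so that the lowest male was above the highest female (log2 1.80 ± 0.59, adjusted p = 0.178). Lepr, the leptin receptor, had 12.1, 4.19 and 20.9 CPM in females and 3.97, 1.05 and 2.81 CPM in males (log2 -2.25 ± 0.61, adjusted p = 0.0969), and Avpr1a, the vasopressin receptor of hepatocytes, had 82.8, 142 and 58.9 and 16.7, 63.6 and 31.98 CPM (log2 -1.34 ± 0.44, adjusted p = 0.177). Esr1, the estrogen receptor, had 37.9, 27.6 and 37.2 CPM in females and 17.4, 22.6 and 26.9 CPM in males, a difference of -0.62 ± 0.22 on the log2 scale with an adjusted p-value of 0.206. The glucocorticoid receptor Nr3c1 had an interval of -0.51 to 0.22, the insulin receptor Insr one of -0.38 to 0.54, the glucagon receptor Gcgr one of -0.89 to 0.77 and the thyroid hormone receptor Thrb one of -0.40 to 0.48. For these 4 genes a difference of 2-fold in either direction lay outside the interval.

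**Figure D2:**
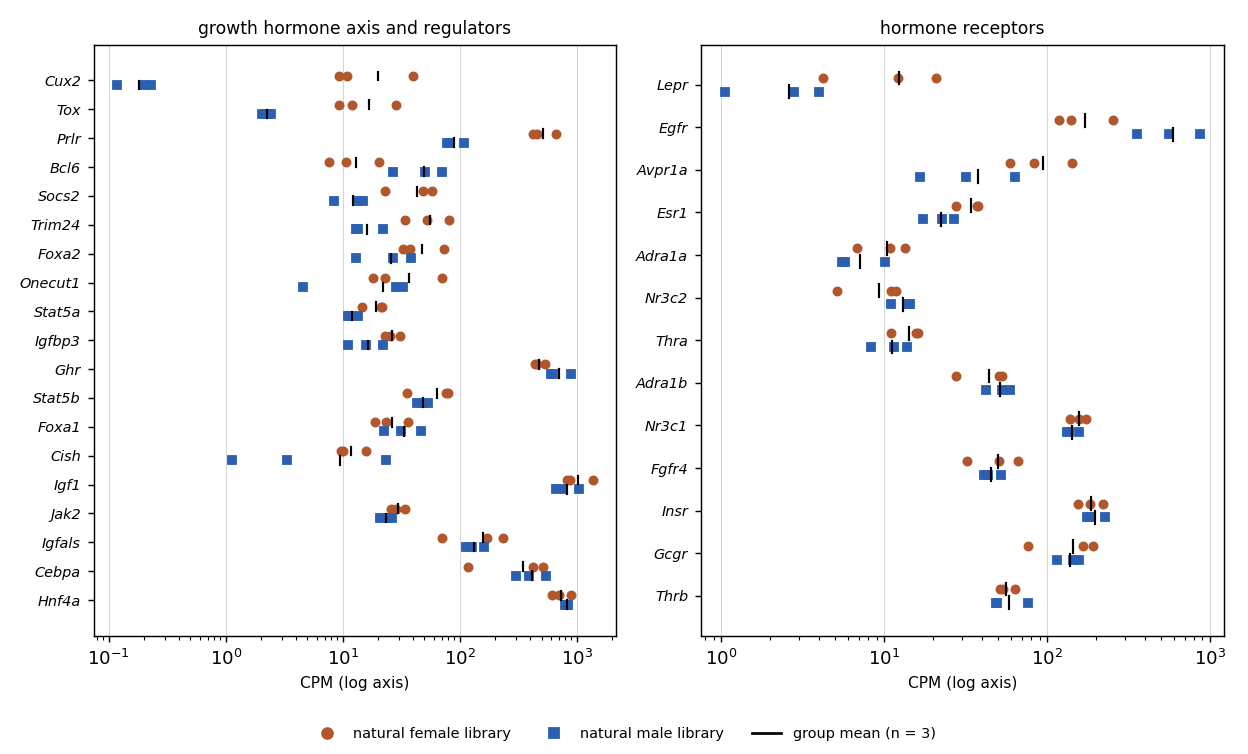
CPM of the 19 growth hormone axis genes and regulators (left) and 13 hormone receptors (right) in each natural library on a log axis, females as circles, males as squares and group means (n = 3) as black bars. Genes are ordered by the size of the log2 fold change, and Cux2 at the top left shows all 3 males below 1 CPM and all 3 females above 9 CPM.

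The 12 largest differences in each direction were mostly of enzymes and secreted carriers. They were taken from called genes whose groups did not overlap and whose higher group averaged 50 normalized counts or more. The 12 higher in males were Cyp4a12b, Obp2a, Cyp4a12a, Scara5, Hsd3b5, Mup20, Mup21, Capn8, Nat8f5, Cyp2d9, Mup7 and Nat8. Of the 12 lower in males, 11 are described here: Sult2a1, Sult2a2, A1bg, Sult3a1, Sult2a5, Sult3a2, Sult2a3, Sult2a6, Slc22a26, Cyp3a41a and Sult2a4. Of these 11, 6 had 0 counts in the 3 males, and Obp2a had 0 counts in the 3 females, so that their differences are lower bounds against a floor of 3 counts over the group. Rank was by the fitted log2 fold change, which for such genes depends on the prior count of the fit, so their place in the order is uncertain. By bound, Sult2a4 (82.02-fold) and Sult2a6 (184-fold) lay below genes left out of the 12, such as Cyp3a16 (549-fold) and Hao2 (220-fold).

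A1bg, a plasma glycoprotein of the immunoglobulin superfamily (chromosome 15, 60896859 to 60923012), had 424, 275 and 365 CPM in females and 0, 0 and 0.0791 CPM in males. The females held 19173 counts in all and the males 2, a ratio of 12750 in level with a 95% counting interval of 3529 to 105300 (Clopper-Pearson), and the adjusted p-value was 1.06e-05. Scara5, a scavenger receptor known to take up ferritin (chromosome 14, 65666403 to 65764826), went the other way, with 0.0401, 0.24 and 0.174 CPM in females and 46.3, 9.79 and 31.7 CPM in males (log2 7.82 ± 0.79, adjusted p = 0.000231). Capn8, a calpain protease (chromosome 1, 182565007 to 182632352), had 0.16, 0.12 and 0.463 CPM in females and 10.7, 21.5 and 22.6 CPM in males (log2 6.11 ± 0.65, adjusted p = 0.000352). Nat8 and Nat8f5, related N-acetyltransferase-like genes, complete the set. Nat8 had 0.722, 0.36 and 0.579 CPM in females and 25.5, 14.3 and 5.14 CPM in males, while Nat8f5 had 0.0401, 0.24 and 0 and 7.31, 3.49 and 0.83 CPM, or 3 counts in all females against 251 in all males (ratio 62.9, counting interval 21.3 to 307). Nat8f5 was called in 4 of the 6 fits that left out a library. Summed over 8 Nat8-type genes, however, levels were 1113, 1123 and 977 CPM in females and 1445, 1493 and 1513 CPM in males.

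**Figure D3:**
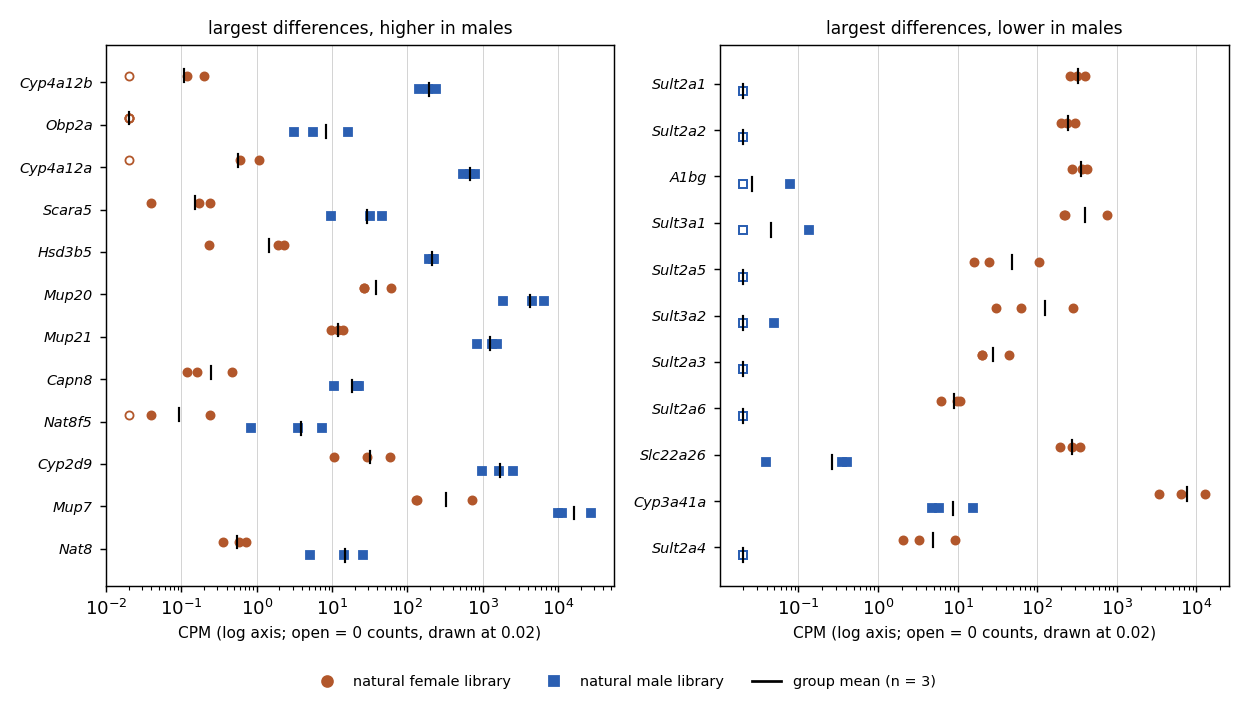
CPM per natural library of the called genes with the largest fitted differences, 12 higher (left) and 11 lower (right) in males, on a log axis, with females as circles, males as squares and group means (n = 3) as black bars. Open symbols are libraries with 0 counts, drawn at 0.02 CPM, and they fill the male rows of 6 Sult2a genes and the female row of Obp2a.

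The promoter windows of this set were read from RefSeq (GRCm38.p6; 250 bases before to 50 after the gene's start). Of the 24 genes, 17 had a window, and TTCNNNGAA, the spaced palindrome that STAT5 is known to bind, was found in those of A1bg, Sult3a1 and Slc22a26, all lower in males, and in none of the genes higher in males. It is its own reverse complement, so both strands are covered by a single search. The 3 windows are given 5′ to 3′ with the match in capitals, because STAT5B is the factor through which growth hormone acts on the genes of the liver.
A1bg: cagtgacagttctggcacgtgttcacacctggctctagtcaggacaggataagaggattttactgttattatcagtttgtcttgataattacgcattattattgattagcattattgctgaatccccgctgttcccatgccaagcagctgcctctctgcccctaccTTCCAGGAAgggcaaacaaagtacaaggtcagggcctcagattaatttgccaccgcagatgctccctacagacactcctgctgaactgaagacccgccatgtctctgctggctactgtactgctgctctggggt
Sult3a1: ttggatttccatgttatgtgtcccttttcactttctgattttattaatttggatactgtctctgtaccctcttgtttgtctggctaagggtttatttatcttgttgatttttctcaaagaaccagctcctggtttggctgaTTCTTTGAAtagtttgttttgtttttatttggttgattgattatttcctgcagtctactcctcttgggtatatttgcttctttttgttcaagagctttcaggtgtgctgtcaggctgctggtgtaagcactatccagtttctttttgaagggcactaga
Slc22a26: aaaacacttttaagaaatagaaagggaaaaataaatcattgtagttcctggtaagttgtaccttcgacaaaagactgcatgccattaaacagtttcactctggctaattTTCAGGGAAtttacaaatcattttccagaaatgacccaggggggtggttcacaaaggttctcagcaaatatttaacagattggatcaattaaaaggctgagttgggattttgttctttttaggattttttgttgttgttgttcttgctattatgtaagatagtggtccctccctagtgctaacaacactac
They lie at chr15:60921221-60921520, minus strand, at chr10:33857472-33857771, plus strand, and at chr19:7802618-7802917, minus strand. The match starts 84, 109 and 141 bases before the gene's start in RefSeq, respectively. For A1bg the RefSeq start lies inside the longer GENCODE span given above, so that its window and match fall within that span. The motif was not confined to called genes. It was in 7.26% of 9874 windows of tested autosomal genes, in 3 of 84 windows of genes called higher in males (3.57%) and in 5 of 81 of genes called lower (6.17%), beside 8.30% of all 32851 windows in the table. A match is a description of these letters, and a window without a match says nothing of sites elsewhere.

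Cytochromes P450, the haem enzymes that hydroxylate steroids, fatty acids and drugs, held the largest number of called genes. Of 72 tested, 19 were called (26.4%, against 1.73% of all autosomal genes), 6 higher and 13 lower in males. The groups did not overlap for 32 of 72, against 19.8% of all genes. Without female replicate 3 the number was 18. The median of the 72 was -0.16, and called members lay in both directions.

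Among those higher in males, Cyp4a12a and Cyp4a12b, fatty acid hydroxylases that make 20-HETE, were nearly absent from females. Cyp4a12a (chromosome 4, 115299046 to 115332815) had 1.08, 0.599 and 0 CPM in females and 797, 673 and 552 CPM in males (log2 10.14 ± 0.90, adjusted p = 8.53e-05). Cyp4a12b (chromosome 4, 115411624 to 115439034) had 0.201, 0.12 and 0 and 243, 187 and 144 CPM (log2 10.60 ± 0.59, adjusted p = 2.25e-06). Relatives in the same family had lower estimates in males. Cyp4a10 had 862, 1364 and 1135 CPM in females and 49.1, 129 and 15.7 CPM in males and Cyp4a14 309, 939 and 1465 and 12.2, 67.2 and 1.38 CPM, with log2 fold changes of -4.11 ± 0.98 and -5.07 ± 1.52, and neither was called (adjusted p = 0.0627 and 0.139). No male of either gene reached the lowest female, and the males differed among themselves by more than 8-fold. Cyp2d9, a testosterone 16α-hydroxylase long used as a marker of the male liver (chromosome 15, 82433437 to 82456845), had 28.7, 10.5 and 58.05 CPM in females and 2501, 988 and 1652 CPM in males, a difference of 52.6-fold (log2 5.72 ± 0.87, adjusted p = 0.00591). Cyp7b1, the oxysterol 7α-hydroxylase (chromosome 3, 18071950 to 18243338), had 94.7, 49.5 and 48.1 CPM in females and 746, 907.3 and 1094 CPM in males (log2 3.83 ± 0.34, adjusted p = 7.57e-05).

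Among those lower in males were 3 of 8 Cyp3a genes, 6 Cyp2c genes, 2 of 3 Cyp2b genes, Cyp2a4 and Cyp2g1. Cyp3a41a, a steroid hydroxylase of the female liver (chromosome 5, 145694049 to 145720136), had 6365, 12934 and 3401 CPM in females and 15.5, 5.89 and 4.74 CPM in males (log2 -9.76 ± 0.74, adjusted p = 2.13e-05). The lowest female was more than 200 times the highest male. Cyp3a16 (chromosome 5, 145436309 to 145469723) had 147, 853 and 382 and 1.28, 0.499 and 0.712 CPM, and Cyp3a44 (chromosome 5, 145773983 to 145805874) 1076, 1589 and 566 and 5.48, 2.85 and 2.06 CPM. In contrast Cyp3a11, the main drug-metabolizing member, had 2134, 3608 and 3347 CPM in females and 7986, 3719 and 2786 CPM in males (log2 0.67 ± 0.51, adjusted p = 0.575), and the sexes overlapped. The sum over 8 Cyp3a genes, Cyp3a11 included, also overlapped, at 10497, 20022 and 8379.8 CPM in females and 8789.9, 4469 and 3509.8 CPM in males. Cyp2b9 (chromosome 7, 26173411 to 26210661) had 572, 448 and 473 CPM in females and 6.67, 20.97 and 2.73 CPM in males, and summed over 3 Cyp2b genes the levels were 820.4, 679 and 753 and 48.6, 65.9 and 27.3 CPM.

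The Cyp2c genes of chromosome 19 were split within a single run of neighbours. Between 39229254 and 40012243, 9 tested genes lay, of which 8 were called. Cyp2c37, Cyp2c38, Cyp2c39, Cyp2c40, Cyp2c68 and Cyp2c69 were lower in males, with log2 fold changes from -5.23 (Cyp2c38) to -1.54 (Cyp2c68). Cyp2c67 was higher, at 276, 235 and 161 CPM in females and 755, 517 and 605 CPM in males (log2 1.48 ± 0.32, adjusted p = 0.0394), although the call was lost when any of the 6 natural libraries was left out. The pseudogene Cyp2c53-ps was also higher in males (log2 3.23 ± 0.60). Cyp2c29, which lies among them, was not called (log2 0.73 ± 0.27, adjusted p = 0.222). Cyp2c39, a retinoic acid hydroxylase, illustrates the size of the difference, with 926, 1309 and 873 CPM in females and 29.3, 50.2 and 15.3 CPM in males. How reads that match several of these near-identical genes were counted is not given in the sources used here, so the division within a family is uncertain. The sum over 13 Cyp2c genes does not depend on that division, though it does on reads that were left uncounted, and was 8706, 8006 and 7205 CPM in females and 5611, 4795 and 5017 CPM in males.

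The start regions of such near-identical P450 genes were set side by side, since close relatives differed in their sex bias. The windows of Cyp3a41a, Cyp3a16 and Cyp3a44 share 280 to 284 identical bases, and each holds ATCAAT, a sequence within known sites of HNF6, once. That of Cyp3a11, which was not called, shares 224 to 235 bases with them and holds no ATCAAT on either strand. The motif is in capitals in the window of Cyp3a41a (chr5:145720087-145720386, minus strand), where it starts 71 bases before the gene's start, and the window of Cyp3a11 (chr5:145879805-145880104, minus strand) follows for comparison.
Cyp3a41a: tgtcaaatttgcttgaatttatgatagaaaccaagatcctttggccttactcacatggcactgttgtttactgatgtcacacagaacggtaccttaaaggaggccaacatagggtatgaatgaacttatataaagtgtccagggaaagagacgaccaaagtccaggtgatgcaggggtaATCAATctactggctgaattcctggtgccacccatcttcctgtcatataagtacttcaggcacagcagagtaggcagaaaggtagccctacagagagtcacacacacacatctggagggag
Cyp3a11: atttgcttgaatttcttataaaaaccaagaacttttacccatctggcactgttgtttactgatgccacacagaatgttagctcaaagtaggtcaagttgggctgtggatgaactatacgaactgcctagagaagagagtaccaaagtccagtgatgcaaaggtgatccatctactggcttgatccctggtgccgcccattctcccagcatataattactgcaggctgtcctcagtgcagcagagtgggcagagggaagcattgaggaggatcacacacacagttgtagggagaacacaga
ATCAAT on either strand was in 4.40% of the windows of tested autosomal genes, in 7 of 84 of genes called higher in males (8.33%) and in 11 of 81 of genes called lower (13.6%). Windows of called genes held less G and C, with medians of 60.7% over tested genes, 56.3% for those higher and 53.3% for those lower in males. Within windows of under 50% GC, 13.01% of the tested genes held it, 21.7% (5 of 23) of those called higher and 30.6% (11 of 36) of those called lower. In windows of at least 50% GC the shares were 3.01% of the tested genes, 3.28% (2 of 61) of those called higher and 0 of 45 of those called lower. The 3 Cyp3a windows are near copies and so are not independent cases.

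Cyp2a4, testosterone 15α-hydroxylase, and Cyp2a5, coumarin 7-hydroxylase, are a closer pair still. Cyp2a4 (chromosome 7, 26307169 to 26315088) had 552, 784 and 1294 CPM in females and 71.7, 31.6 and 50.7 CPM in males (log2 -4.09 ± 0.44, adjusted p = 0.000381). Cyp2a5 (chromosome 7, 26835305 to 26843548) had 555, 846 and 1398 CPM in females and 1266, 525 and 868 CPM in males (log2 -0.07 ± 0.39, interval -0.93 to 0.78, adjusted p = 0.946). The sum over 4 Cyp2a genes, among which the division of reads is uncertain, was 1853, 2444 and 3495 CPM in females and 2400.2, 1225 and 1526 CPM in males and overlapped. The windows of Cyp2a4 and Cyp2a5 are identical at 294 aligned bases and differ by 5 substitutions, C19T, T131C, G161A, G205T and T270C, written as the Cyp2a4 base, its position from 1 at the start of the Cyp2a4 window, and the Cyp2a5 base. The substituted bases are in capitals. The windows are at chr7:26306942-26307241, plus strand and chr7:26835089-26835388, plus strand.
Cyp2a4: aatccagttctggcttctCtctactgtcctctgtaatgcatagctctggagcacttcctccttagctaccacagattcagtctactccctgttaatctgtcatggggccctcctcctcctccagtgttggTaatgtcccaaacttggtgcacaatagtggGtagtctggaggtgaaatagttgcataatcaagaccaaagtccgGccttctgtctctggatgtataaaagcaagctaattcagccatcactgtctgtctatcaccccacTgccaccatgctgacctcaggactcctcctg
Cyp2a5: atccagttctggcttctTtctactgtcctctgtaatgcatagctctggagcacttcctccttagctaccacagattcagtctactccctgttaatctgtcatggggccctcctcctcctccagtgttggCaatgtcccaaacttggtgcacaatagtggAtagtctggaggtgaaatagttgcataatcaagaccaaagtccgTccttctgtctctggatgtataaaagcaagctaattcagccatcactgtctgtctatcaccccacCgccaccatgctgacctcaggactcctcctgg

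Sulfotransferases, which attach sulfate to steroids, bile acids and drugs, were the class with the highest share of calls. Of 18 tested, 10 were called (55.6%, against 1.73% of all autosomal genes), and all 10 were lower in males. The median log2 fold change was -2.55 (-2.87 by library size alone). Without female replicate 3, 7 were called. Sult2a1 (chromosome 7, 13796246 to 13837409), a hydroxysteroid and bile acid sulfotransferase, had 258, 395 and 315 CPM in females and 0 counts in each male, at least 6725-fold lower (adjusted p = 0.000103). Sult2a2 (chromosome 7, 13733505 to 13779636) had 199, 302 and 234 CPM in females and 0 counts in each male, at least 5113-fold lower (adjusted p = 0.000244). The other genes without a male count were Sult2a5, Sult2a3, Sult2a6 and Sult2a4, at least 755, 539, 184 and 82.02-fold lower in males. Sult2a3 had 20.1, 43.7 and 20.3 CPM in females, yet its call (adjusted p = 0.0261) was lost when any of the 6 libraries was left out. Sult2a7, outside this block, had 26.8, 26.7 and 20.7 CPM in females and 2.19, 3.74 and 3.2 CPM in males (log2 -3.02 ± 0.62, adjusted p = 0.0318), a call that was also lost in all 6 fits.

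Sult2a8 was the member of the family with a higher estimate in males. It had 645, 589 and 362 CPM in females and 958, 955 and 1087 CPM in males, with no overlap, a log2 fold change of 0.91 ± 0.27 and an adjusted p-value of 0.135. The sum over 8 Sult2a genes overlapped between the sexes, at 1173, 1481 and 991 CPM in females and 961, 959 and 1090.4 CPM in males.

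The pair Sult3a1 and Sult3a2, amine sulfotransferases next to each other on chromosome 10, was nearly silent in males. Sult3a1 (chromosome 10, 33857721 to 33879532) had 217, 759 and 226 CPM in females and 0.137, 0 and 0 CPM in males, or 15652 counts against 3 (ratio 6939, counting interval 2374 to 33650; adjusted p = 2.17e-05). Sult3a2 had 63.01, 281 and 30.1 CPM in females and 1 count over the males (ratio 5898, counting interval 1058 to 233000; adjusted p = 0.00183). Female replicate 2 was the highest in both. Of the Sult1 genes, Sult1c2 was lower in males (log2 -2.07 ± 0.38, adjusted p = 0.0175), while Sult1a1, the phenol sulfotransferase, had 451, 1020.2 and 483 CPM in females and 301, 323 and 284 CPM in males and was not called (log2 -1.11 ± 0.33, adjusted p = 0.141). Papss2, which makes the sulfate donor, had 261, 700.3 and 322 CPM in females and 205, 166 and 206 CPM in males (log2 -1.15 ± 0.45, adjusted p = 0.249).

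Steroid dehydrogenases and reductases gave 4 calls among 30 tested (13.3%, against 1.73% of all autosomal genes), all 4 higher in males. The groups did not overlap for 15 of the 30, against 19.8% of all genes. Hsd3b5, a 3-ketosteroid reductase of the male liver (chromosome 3, 98618634 to 98630252), had 1.93, 2.28 and 0.232 CPM in females and 195, 223 and 217 CPM in males, which lay close together (log2 7.21 ± 0.88, adjusted p = 0.000987). Hsd3b2 had 32.7, 28.8 and 26.997 CPM in females and 119, 96.3 and 129 CPM in males (log2 1.96 ± 0.28, adjusted p = 0.00386). Hsd3b3 (log2 1.95 ± 0.41, adjusted p = 0.036) and Hsd17b12 (log2 1.04 ± 0.22, adjusted p = 0.0338), an enzyme of long-chain fatty acid and estrogen synthesis, were each called in 1 of the 6 fits that left out a library. The sum over 7 Hsd3b genes was 721, 238 and 501 CPM in females and 808, 994 and 961 CPM in males.

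Of 38 glutathione and glucuronosyl transferases, 3 were called higher and 1 lower in males (10.5%, against 1.73% of all autosomal genes). Gstp1, a pi-class glutathione transferase (chromosome 19, 4035407 to 4037985), had 146, 103 and 143 CPM in females and 1475, 756 and 2205 CPM in males (log2 3.50 ± 0.38, adjusted p = 0.000367), and its near-identical neighbour Gstp2 had 29.6, 66.6 and 49.1 and 309.9, 178 and 512 CPM (log2 2.79 ± 0.53, adjusted p = 0.0222). The sum over 3 Gstp genes was 522, 181 and 562 CPM in females and 2091, 1183 and 2725 CPM in males. Ugt2b35 was higher in males (log2 1.49 ± 0.26, adjusted p = 0.0144), and Ugt1a5 lower (log2 -1.97 ± 0.43, adjusted p = 0.043), the latter called in 1 of the 6 fits. Without female replicate 3 the class had 2 calls, and Gstp2 was called in 2 of the 6 fits that left out a library. Of 30 genes of the NRF2 and antioxidant list, 2 were called (6.67%), both higher in males. The aldehyde oxidase Aox3 had 216, 136 and 144 CPM in females and 875, 707 and 645 CPM in males (log2 2.17 ± 0.26, adjusted p = 0.000921). The other was the carboxylesterase Ces2c (log2 1.78 ± 0.37, adjusted p = 0.0355), called in 3 of the 6 fits that left out a library. These are drug-metabolizing enzymes, and no other member of that list was called.

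Major urinary proteins and other lipocalins carry small hydrophobic molecules. Of 22 tested, 7 were called (31.8%, against 1.73% of all autosomal genes), all 7 higher in males. The groups did not overlap for 16 of 22, all 16 higher in males, against 19.8% of all genes in either direction. The median log2 fold change was 1.99 (1.73 by library size alone). Without female replicate 3 the number called was also 7, with Mup12 lost (adjusted p = 0.0587) and Mup14 gained (adjusted p = 0.0469). Mup20, known as darcin, the male pheromone (chromosome 4, 62050234 to 62054158), had 26.2, 61.6 and 26.3 CPM in females and 4502, 6459.7 and 1886 CPM in males, or 113-fold (log2 6.82 ± 0.87, adjusted p = 0.00139). Mup21 (chromosome 4, 62147932 to 62150863) had 11.95, 14.02 and 9.56 and 1335, 1565 and 842 CPM (log2 6.72 ± 0.45, adjusted p = 1.06e-05). Mup7 had 721, 136 and 129 CPM in females and 11176, 27703 and 10051 CPM in males (log2 5.63 ± 0.87, adjusted p = 0.00661). Obp2a, an odorant-binding lipocalin (chromosome 2, 25700043 to 25703326), had 0 counts in the females and 16.2, 3.1 and 5.57 CPM in the males, at least 139.8-fold higher (adjusted p = 0.00803).

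The central, near-identical Mup genes had high levels in both sexes and varied widely among the females. Mup1 had 4096, 5599.5 and 712 CPM in females and 12538, 14822 and 16426 CPM in males, and Mup9 11721, 7648 and 1855 and 23727, 30628 and 25383 CPM. Female replicate 3 was lowest in both, and neither was called (adjusted p = 0.196 and 0.18). Mup13 had 46.8, 3365 and 31.1 CPM in females and 251, 9497 and 382 CPM in males, and in each sex replicate 2 was far above the others. Summed over 18 Mup genes, which sets aside the uncertain division between them, the levels were 31993, 31674 and 7779.6 CPM in females and 106963, 165252 and 107133 CPM in males. The lowest male was more than 3 times the highest female.

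Among 29 genes of bile acid synthesis and transport, 10.3% were called, against 1.73% of all autosomal genes. Higher in males was 1, the already described Cyp7b1, and 2 were lower. These were Abcb1a, a multidrug efflux pump, with 8.98, 14.3 and 9.73 CPM in females and 3.06, 2.25 and 1.54 CPM in males (log2 -2.26 ± 0.36, adjusted p = 0.00732), and Abcc4, a basolateral exporter of bile acids and nucleotides, with 4.61, 8.39 and 5.85 and 1.28, 1.3 and 2.21 CPM (log2 -1.95 ± 0.32, adjusted p = 0.00971). No male reached the lowest female for either pump.

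Carriers of organic ions, metals and amino acids gave 4 calls among 35 (11.4%, against 1.73% of all autosomal genes), all 4 lower in males. All 4 were also called without female replicate 3. Slc22a26, an organic anion transporter (chromosome 19, 7781041 to 7802667), had 193, 347 and 271 CPM in females and 0.411, 0.349 and 0.0395 CPM in males (log2 -10.00 ± 0.69, adjusted p = 1.2e-05), and the related Slc22a27 had 21.7, 27.1 and 35.4 and 0.548, 0.599 and 0.277 CPM (log2 -5.89 ± 0.49, adjusted p = 4.61e-05). Slc16a5, a monocarboxylate carrier, had a log2 fold change of -2.21 ± 0.34 (adjusted p = 0.00647), and Slc30a10, the manganese exporter, one of -1.09 ± 0.21 (adjusted p = 0.0202), with 62.5, 79.3 and 63.5 CPM in females and 30.3, 40.9 and 25.1 CPM in males. Slc30a10 was called in 3 of the 6 fits that left out a library.

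In lipid metabolism the calls were few and concerned particular enzymes. Of 39 genes of fatty acid oxidation and the peroxisome, 3 were called (7.69%, against 1.73% of all autosomal genes), all lower in males. Abcd2, a peroxisomal importer of very long-chain fatty acids (chromosome 15, 91145871 to 91191799), had 75.2, 74.1 and 112 CPM in females and 0.731, 0.549 and 0.593 CPM in males (log2 -7.11 ± 0.38, adjusted p = 2.06e-06). Hao2, a hydroxyacid oxidase, had 28.8, 66.4 and 47.4 CPM in females and 0.411, 0.0999 and 0.119 CPM in males (log2 -7.78 ± 0.60, adjusted p = 2.22e-05). Acot3, a peroxisomal thioesterase, had 93.4, 107 and 256 CPM in females and 10.5, 5.99 and 1.54 CPM in males (log2 -4.67 ± 0.70, adjusted p = 0.00503). All 3 were called without female replicate 3, which was the highest library for Abcd2 and Acot3.

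Of 27 genes of fatty acid synthesis, desaturation and elongation, Elovl3 was called, an elongase, with 2.05, 3.72 and 12.3 CPM in females and 81.8, 76.8 and 75.02 CPM in males (log2 3.68 ± 0.67, adjusted p = 0.0178). Of 34 genes of lipid droplets and fatty acid uptake, Vldlr was called, the very low density lipoprotein receptor, with 49.02, 60.04 and 70.8 CPM in females and 6.62, 8.99 and 1.26 CPM in males (log2 -3.42 ± 0.55, adjusted p = 0.00766). Of 24 genes of glucose and glycogen metabolism, Pfkfb3 was called, a regulator of glycolysis, with 4.25, 6.35 and 8.86 CPM in females and 64.001, 28.6 and 37.9 CPM in males (log2 2.75 ± 0.40, adjusted p = 0.00429). The groups did not overlap for any of these 3 genes, as for 220 of the 221 called genes. Elovl3 was called in 3 of the 6 fits that left out a library, and Vldlr and Pfkfb3 in all 6. With 1 call each, the 3 classes had 3.70%, 2.94% and 4.17% of their members called, beside 1.73% of all autosomal genes.

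Cholesterol synthesis had 0 of 21 genes called by edgeR (0 by limma voom, 1 by DESeq2). Of the 21, 5 had an unadjusted p under 0.05, beside 1888 of the 12773 autosomal genes. The estimates were nonetheless higher in males for 20 of 21 (19 of 21 by library size alone), with a median log2 fold change of 0.72 (0.39 by library size alone), beside -0.02 for all autosomal genes (-0.33 by library size alone). Fdps, which makes farnesyl diphosphate, had 29.3, 58.4 and 103 CPM in females and 116, 182 and 243 CPM in males, without overlap (adjusted p = 0.203). Female replicate 3 was the highest of the females. Among 27 apolipoproteins and cholesterol transport genes 0 were called by edgeR (0 by limma voom, 2 by DESeq2, 4 at an unadjusted p under 0.05). The efflux pump Abca1 had 234, 111 and 181 CPM in females and 279, 338 and 348 CPM in males (log2 0.87 ± 0.27, adjusted p = 0.157).

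Among secreted proteins, 3 of 31 serpins were called (9.68%, against 1.73% of all autosomal genes), 2 higher and 1 lower in males. The groups did not overlap for 18 of the 31, against 19.8% of all genes. Of these 18, 15 were higher in males, and the median of the 31 was 0.67 (0.38 by library size alone). Serpina12, known as vaspin (chromosome 12, 104028769 to 104044443), had 1.85, 0.599 and 0.637 CPM in females and 18.6, 17.7 and 33.8 CPM in males (log2 4.39 ± 0.56, adjusted p = 0.00145). Serpine2, protease nexin 1, was higher in males (log2 3.29 ± 0.61, adjusted p = 0.0186), while Serpinb1a, an inhibitor of neutrophil proteases (chromosome 13, 32842092 to 32851185), had 87.8, 41.5 and 51.9 CPM in females and 0.822, 4.69 and 3.56 CPM in males (log2 -4.32 ± 0.65, adjusted p = 0.00537). Serpine2 was called in 3 of the 6 fits that left out a library. The α1-antitrypsin genes were not called: summed over 5 Serpina1 genes the levels were 34467, 30088 and 21542 CPM in females and 48909.6, 48153 and 58609 CPM in males, without overlap.

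Complement and coagulation gave 3 calls higher and 1 lower among 44 genes (9.09%, against 1.73% of all autosomal genes). The lower was A1bg, which stood in that list. C6, a component of the membrane attack complex (chromosome 15, 4727175 to 4814967), had 16.5, 12.6 and 10.7 CPM in females and 311, 209 and 198 CPM in males, (log2 4.17 ± 0.29, adjusted p = 1.2e-05). Susd4, an inhibitor of complement activation (chromosome 1, 182763860 to 182896591), had 2.25, 0.719 and 3.07 CPM in females and 40.8, 39.9 and 48.2 CPM in males (log2 4.34 ± 0.56, adjusted p = 0.00156). C4bp, the C4-binding protein, had 309, 216 and 185 and 445, 602 and 525 CPM (log2 1.15 ± 0.24, adjusted p = 0.0338) and was called in 1 of the 6 fits that left out a library.

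Acute-phase genes, which the liver is known to induce in inflammation, gave calls that were mostly lost when a library was left out. Of 29 tested, 4 were called higher and 1 lower in males (17.2%, against 1.73% of all autosomal genes). Without female replicate 3, however, the only call was Hamp2. Hamp2, a paralog of the iron hormone hepcidin (chromosome 7, 30922372 to 30924681), had 258, 428 and 154 CPM in females and 2.1, 0.25 and 1.9 CPM in males (log2 -7.60 ± 0.88, adjusted p = 0.000654). Hamp, hepcidin itself, had 410.3, 2377 and 104 CPM in females and 287, 2.85 and 180.2 CPM in males and was not called (adjusted p = 0.345).

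The 4 higher in males were Saa1, Saa3, Hp and Hpx, each called in 1 of the 6 fits that left out a library, and they were uneven among the males. Saa1, a serum amyloid, had 241, 394 and 93.9 CPM in females and 1765, 8490.4 and 4138 CPM in males (log2 4.30 ± 0.95, adjusted p = 0.0441, and 0.132 without female replicate 3). Saa3 had 2.97, 5.27 and 3.88 CPM in females and 6.26, 174 and 115 CPM in males (log2 4.63 ± 1.01, adjusted p = 0.0412, and 0.134 without that library). Hpx, the haem scavenger haemopexin, had 2033, 1717 and 1770.4 CPM in females and 2814, 10662 and 8543 CPM in males (log2 1.996 ± 0.44, adjusted p = 0.043, and 0.123 without it). Male replicate 1 was the lowest male in all 3, close to the females for Saa3, and male replicate 2 the highest. Lcn2, another acute-phase gene, had 14.7, 1615 and 1173 CPM in the males, so that replicate 1 lay within the range of the females (46.4, 90.6 and 9.27 CPM), and it was not called (adjusted p = 0.176).

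Stress genes were read in lists of 26 and 15 genes drawn up after these values were seen. Of the 26 genes of endoplasmic reticulum stress and the integrated stress response, 4 were called (15.4%, against 1.73% of all autosomal genes). They were Asns, Herpud1, Ficd and Fkbp11, all higher in males, and 2 genes were called without female replicate 3. Asns, asparagine synthetase, had 0.16, 0.24 and 1.04 CPM in females and 1.01, 12.1 and 13.8 CPM in males, so that male replicate 1 overlapped female replicate 3 (log2 4.18 ± 0.90, adjusted p = 0.0394). Herpud1, a part of the degradation machinery of that compartment, had 100.4, 130.4 and 231 CPM in females and 697, 276 and 572 CPM in males (log2 1.74 ± 0.38, adjusted p = 0.0412). Hspa5, the main chaperone there, had 425, 665 and 694 and 739.9, 1460.4 and 1509 CPM and was not called (adjusted p = 0.334). Of the 15 heat shock and immediate early genes 1 was called (6.67%), and 3 without female replicate 3. The call was the chaperone Hspa1b, with 7.5, 14.5 and 32.8 CPM in females and 108, 254 and 324 CPM in males (log2 3.64 ± 0.77, adjusted p = 0.0355). As these lists were chosen on these samples, they are no independent evidence of a direction.

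Of 18 circadian clock genes 1 was called (5.56%, against 1.73% of all autosomal genes), Arntl, which encodes BMAL1. It had 15.5, 22.2 and 4.23 CPM in females and 2.65, 2.1 and 2.21 CPM in males (log2 -2.57 ± 0.50, adjusted p = 0.0244), and female replicate 3 was nearer to the males than to the other females. Without that library 7 of the 18 were called. Among these, Per3 had 6.02, 8.15 and 26.3 CPM in females and 29.3, 22.7 and 33.05 CPM in males, with an adjusted p-value of 0.29 with all libraries and 0.00566 without female replicate 3. Dbp, an output gene of the clock, had 18.7, 8.99 and 64.8 CPM in females and 63.8, 49.4 and 97.4 CPM in males, with 0.372 and 0.0436 for the same fits. In Per3, Dbp and Arntl female replicate 3 lay with the males or between the groups. The labels give no time of day for any animal.

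The remaining classes had 0 calls by edgeR. They were 35 interferon-stimulated genes (7 at an unadjusted p under 0.05), 23 of antigen presentation (7), 43 of amino acid, urea and one-carbon metabolism (7), 22 nuclear receptors and xenobiotic sensors (2) and 23 zonation markers (5). Of all 12773 autosomal genes, 1888 had an unadjusted p under 0.05. In each of these classes limma voom also called 0, and DESeq2 called 2, except for 0 of the nuclear receptors. The smallest p-values in them belonged to Ifi27 and Isg15, H2-Q10 and H2-Eb1, Kmo and Agxt, Nr5a2 and Nr0b2, and Cyp1a2 and Axin2. H2-Eb1, a class II antigen-presenting chain, had 22.6, 17.02 and 10.5 CPM in females and 7.72, 2.4 and 5.18 CPM in males (log2 -1.71 ± 0.55, adjusted p = 0.166). Axin2, a target of Wnt signalling around the central vein, had 19.3, 18.9 and 13.1 and 4.84, 6.84 and 9.57 CPM (log2 -1.27 ± 0.36, adjusted p = 0.11). Kmo, an enzyme of tryptophan breakdown, had 191, 183 and 169 and 298, 279 and 281 CPM (log2 0.66 ± 0.18, adjusted p = 0.105). The groups did not overlap for these 3 genes, and their adjusted p-values were above 0.05. Over the 26 classes, 19 had a median log2 fold change within 0.4 of 0, from -0.36 to 0.34, and by library size alone these medians lay from -0.65 to 0.03, as the median of all autosomal genes moved from -0.02 to -0.33.

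**Figure D4:**
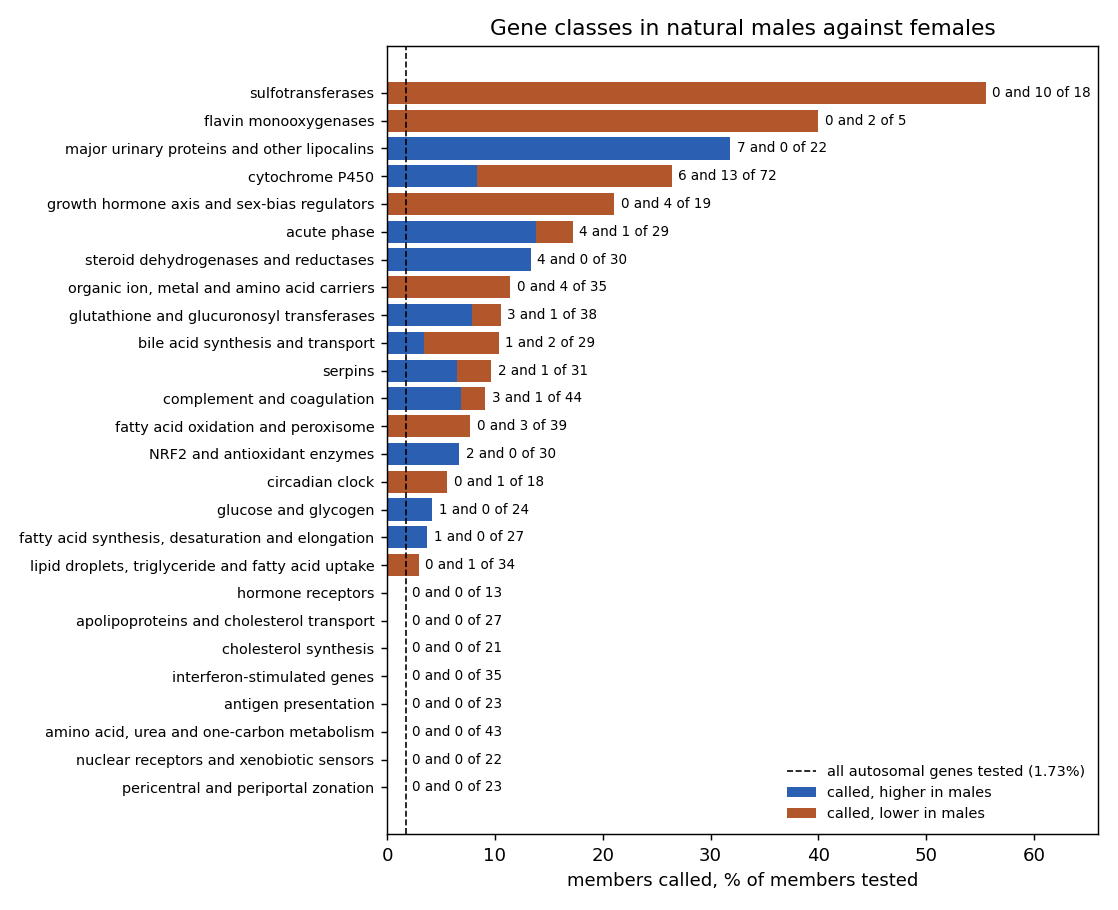
Share of tested members called in each of the 26 gene classes, in percent, split into genes higher (blue) and lower (brown) in males, with the number higher, the number lower and the number tested beside each bar. The dashed line is the share over all autosomal genes, 1.73%, and 18 classes hold at least 1 call while 8 hold none.

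Most called genes, 144 of 221, were in none of the 26 classes, 80 higher and 64 lower in males. Of these, 6 are given next, chosen after their values were seen, from genes called in all 6 fits that left out a library. On the male side, Car3, a carbonic anhydrase abundant in the male liver (chromosome 3, 14863512 to 14872523), had 1947, 1453 and 1193 CPM in females and 5059, 5743 and 5632 CPM in males (log2 1.84 ± 0.29, adjusted p = 0.00661). Nudt7, a peroxisomal coenzyme A hydrolase, had 69.2, 46.5 and 70.4 and 350.0, 397 and 506 CPM (log2 2.75 ± 0.35, adjusted p = 0.00129). Nox4, an NADPH oxidase, had 6.02, 10.3 and 9.27 CPM in females and 89.4, 53.6 and 64.7 CPM in males (log2 3.03 ± 0.35, adjusted p = 0.000695). Lama3, a laminin chain, had 0.842, 1.2 and 0.406 and 17.9, 15.6 and 13.2 CPM (log2 4.32 ± 0.46, adjusted p = 0.000363). On the other side, Nt5e, the ectonucleotidase CD73, had 125, 111 and 119 CPM in females and 6.53, 8.59 and 4.03 CPM in males (log2 -4.21 ± 0.33, adjusted p = 2.28e-05). Rcan2, a calcineurin regulator, had 15.6, 63.8 and 20.9 and 1.78, 2.55 and 1.86 CPM (log2 -4.01 ± 0.54, adjusted p = 0.00204). By contrast, Alas1, the rate-limiting enzyme of haem synthesis, was called in only 1 of those 6 fits, although its groups did not overlap. It had 25.4, 84.7 and 128 CPM in females and 382, 480.4 and 657 CPM in males (log2 2.67 ± 0.59, adjusted p = 0.0445).

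Some called genes of a family lay side by side. Runs of at least 3 called genes with gaps of at most 200 kb between them numbered 8 and held 34 of the 221 called genes (15.4%). They also held genes of no shared family, and whether such runs are more frequent than among other genes was not tested. The longest was the Cyp2c run described above. On chromosome 7, from 13623967 to 14254870, all 6 tested genes were Sult2a genes and lower in males. A further run on that chromosome held Cyp2b13, Cyp2b9 and Cyp2a4, all lower in males. On chromosome 3, Hsd3b5, Hsd3b2 and Hsd3b3, higher in males, lay in a run with Hao2, which was lower. Hsd3b1, Hsd3b6 and Zfp697 were tested in the same span and not called. On chromosome 17, from 43801351 to 44280172, all 4 tested genes were called, of which Enpp4 and Enpp5 belong to a family, with Rcan2 lower and Enpp5, Enpp4 and Clic5 higher in males. Direction was shared within 4 of the 8 runs. By chromosome, the share of tested genes called ranged from 0.564% on chromosome 11 to 3.19% on chromosome 19.

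The same contrast in IVF animals rests on 6 other libraries and the same model. It called 270 autosomal genes (2.11%). Of the 221 genes called after natural conception, 139 were also called after IVF, all in the same direction, which is 62.9% of the natural and 51.5% of the IVF calls. The estimate had the same sign in 214 of 221, and the median size of the log2 fold change was 2.34 after natural conception, on which these genes were chosen, and 2.08 after IVF. The test of the difference between the 2 contrasts called 0 genes by edgeR, with a smallest adjusted p-value of 0.314. Its unadjusted p was under 0.05 for 490 of 12773 genes, a share below that threshold itself. DESeq2's Wald test called 9 and limma voom 0. The smallest p-values of that difference belonged to Abcd2 and Esr1. Abcd2 was lower in males by 7.11 on the log2 scale after natural conception and had -4.15 after IVF (adjusted p = 2.07e-05). Esr1 had -0.62 and -2.35 (adjusted p = 0.206 and 0.000175).

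Of the 81 genes called in all 6 fits that left out a natural library, 76 were also called after IVF. Of the 56 called in 1 of those fits 15 were, and of the 26 called in none 14 were. Among genes called in 1 fit, Saa1, Saa3, Hpx and Alas1 had log2 fold changes of 1.48, 0.85, 0.26 and 0.58 after IVF, with adjusted p-values of 0.462, 0.733, 0.832 and 0.701, and Arntl had -0.80 (0.505). Cyp2c67, called in none of the 6, was called after IVF with 1.66 (0.0197), and so was Sult2a3 (0.0152). Among genes called in all 6 fits, Cyp4a12a, Mup21, C6 and Cux2 had 9.84, 6.85, 4.04 and -6.75 after IVF, with adjusted p-values of 9.55e-05, 1.31e-05, 1.39e-05 and 0.00119. Enpp5 was among those without a call after IVF, with 0.49 (0.196).

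**Figure D5:**
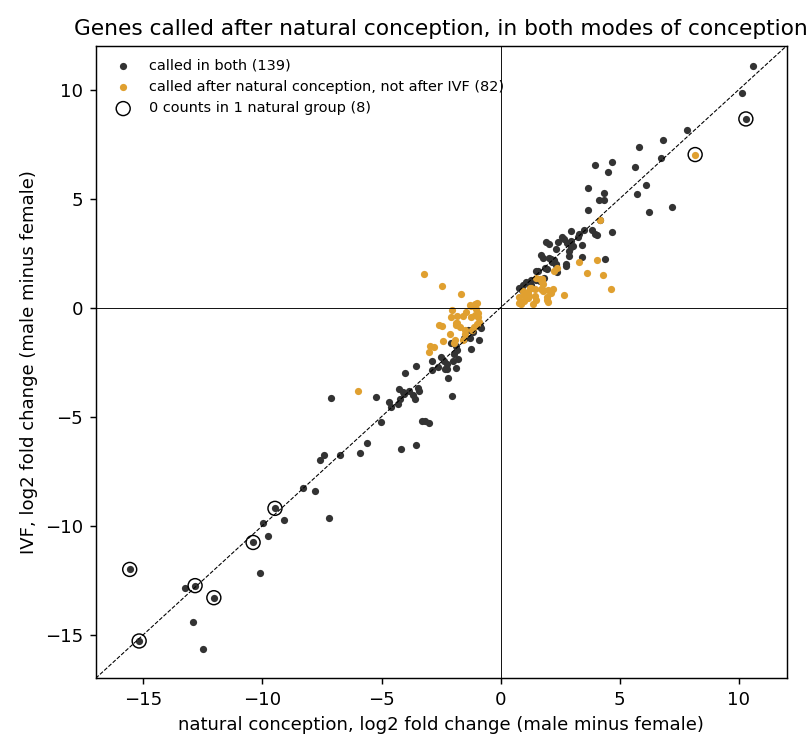
Log2 fold change, male minus female, of the 221 genes called after natural conception (x) and of the same genes after IVF (y), with 139 dark points called in both and 82 yellow points not called after IVF. The dashed line marks equal values, and circled points are 8 genes with 0 counts in a natural group, whose fitted position depends on the prior count of the fit.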

How the data were processed

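Poly-A messenger RNA of whole liver was sequenced in 12 libraries, and the 6 of naturally conceived animals were compared here. The authors deposited a table of whole-number read counts per gene symbol, with 1 column per library and 0 columns of no sample. The submitters' processing notes name Trimmomatic 0.32, STAR 2.3.0e, featureCounts 1.5.0 and mm10, while strand and the handling of reads that match several genes are not given in the sources used here. Columns were matched to libraries by title. The replicate numbers used in the text only name libraries, in accession order.

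Counts were tested with edgeR 4.0.16 in R 4.3.3 (quasi-likelihood fit of 4 group means over 12 libraries, filterByExpr, TMM scaling), with Benjamini-Hochberg adjustment over 13204 genes and a threshold of 0.05. The X and Y genes were kept in the fit and left out of the text. The p-values measure the spread between these libraries, whose source in separate litters is not labelled. Chromosomes and positions came from the GENCODE annotation of GRCm38, matched by symbol (23813 symbols, and 274 and 354 more through RefSeq symbols and synonyms, with 86 unmatched). Standard errors were taken as the size of the log2 fold change over the square root of the quasi-likelihood F statistic. The 95% intervals of log2 fold changes were built from these and are therefore approximate. A group at 0 counts was set to 3 counts over the group to give a bound, and counting intervals are 95% Clopper-Pearson, for counting error only.

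Members, lists and tests were chosen with earlier results of these data known. Named genes are, first, the 12 largest called differences in each direction by fitted log2 fold change. Next are up to 4 called genes per class, or the 2 of smallest p where none was called. All growth hormone axis and receptor genes, and the 2 of smallest p in the test against IVF, were added. Other genes named, mostly relatives of these and members of the stress and clock lists, were chosen after their values were seen. A few genes that the rule names are not reported here. Alternatives were other scalings and filters, DESeq2 1.42.0, limma voom 3.58.1, other fits and leaving out each natural library. The scripts were tested on simulated data.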

Additional observations from a re-analysis of the deposited data

How the results depend on the processing

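The main comparison gave 221 autosomal calls, 113 higher and 108 lower in males. DESeq2's Wald test gave 647 (355 higher, 292 lower) and called 9 genes in the test against IVF, where edgeR called 0. A term for the 2 smallest libraries gave 434 (222 and 212), an adjusted p under 0.1 gave 419 (220 and 199), library size alone 480 (84 and 396), and the 6 natural libraries alone 130 (64 and 66). Leaving out each natural library gave 104 to 179 calls, 56 to 93 higher and 47 to 86 lower, and 0 in the test against IVF. The fewest followed without male replicate 3 (104) and male replicate 2 (119). DESeq2 size factors, no filter, a filter of 1 CPM, limma voom, robust estimates and a GC offset gave 209 to 265 calls. The cause of these shifts was not tested, beyond the fewer samples in the smaller fits. All 221 genes kept their direction in each of the 6 fits that left out a library, 81 were called in all 6 and 26 in none. Among 104 genes named by rule, 62 were called, 42 of them in all 16 alternatives. Of 1664 values, 1520 kept their direction and their side of the threshold, 101 lost a call, 20 gained one and 23 reversed. None of the 23 was of a called gene. By library size alone the reversed log2 values were -0.092 for Adra1b, -0.093 for Cebpa, -0.15 for Hnf4a, -0.23 for Insr and -0.27 for Thrb. With the term for the smallest libraries they were -0.15 for Cebpa and -0.045 for Insr, and with limma voom 0.048 for Gcgr. Leaving out each library in turn, values crossed 0 for Adra1b (-0.0070 to 0.39), Cebpa (-0.17 to 0.62), Cish (-2.40 to 0.19), Fgfr4 (-0.36 to 0.14), Gcgr (-0.37 to 0.19), Igfals (-0.59 to 0.15), Insr (-0.039 to 0.22), Onecut1 (-1.18 to 0.092) and Thrb (-0.20 to 0.16). No paired analysis was possible because the titles of the natural libraries share no number between the sexes, and those of the IVF libraries share 1, in a single pair. Depth limits the low genes most in female replicate 2, with 8056230 counts.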
